A study of Mus musculus with 6 samples.

Results

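The ErbB receptors and their EGF-like ligands were examined in Wnt1-YL cells after knockdown of Sca-1. The members are 3 receptor genes (Egfr, Erbb2 and Erbb3), 6 ligand genes (Areg, Ereg, Hbegf, Tgfa, Btc and Nrg1) and Errfi1, and they were taken by name as a family. Of these 10 genes, 9 had probe sets that the platform annotation assigned to them, 21 in all, among 18193 named genes and 45037 probe sets tested. Areg had none so assigned and was not analysed here. Wnt1-YL is a mammary tumour line grown from an MMTV-Wnt1 mouse. RNA was measured on 3 arrays of shSca-1 cells, which carry a lentiviral shRNA against Sca-1, and on 3 arrays of shLuc cells, which carry an shRNA against luciferase. Both groups were selected with puromycin and cultured in medium with 2% adult bovine serum, 10 μg/ml insulin and 5 ng/ml EGF, so that an ErbB ligand was supplied to every sample. The line came from 1 tumour, and the labels call the arrays of a group biological replicates. The labels do not say whether these were separate cultures, so p-values measure the spread between these samples.

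ErbB receptors are tyrosine kinases of the cell surface that pair when a ligand binds. The ligands share a fold known as the EGF-like domain. They are made as membrane proteins, most of which metalloproteases of the ADAM family cut free. EGF, TGF-α, amphiregulin, epiregulin, HB-EGF and betacellulin bind the EGF receptor, neuregulins bind ErbB3 and ErbB4, and ErbB2 has no known ligand and serves as a partner. Paired receptors recruit adaptor proteins and switch on the RAS and ERK cascade, which in turn induces inhibitors that damp the signal. In the mammary gland the family is known for its part in ductal growth and in tumours.

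Values are intensities, which the authors computed per probe set with dChip after normalizing the arrays to each other, on a linear scale. The array medians lay between 37.3 and 40.7, and probe sets in that range are near background. The probe set of Ly6a, the gene that encodes Sca-1, checked the labels. Ly6a had intensities of 285, 314 and 306 on shSca-1 replicates 1, 2 and 3, against 7646, 7362 and 2843 on shLuc replicates 1, 2 and 3. Its log2 fold change, shSca-1 minus shLuc, was -4.17 with a standard error (SE) of 0.36 (adjusted p = 0.051 from limma). Without shLuc replicate 3 the value was -4.64 (adjusted p = 5.2e-07 from limma). The name of this probe set came from the gene table of the study. One array stood apart from the others. On shLuc replicate 3, the summed intensity of 15 luminal marker genes was 22583, against 614 to 674 on the other 5 arrays, and 11 of the 15 were over 4 times their value on every other array. Krt18, a luminal keratin, was 7175 on it and at most 65.2 elsewhere, and Cdh1, which encodes E-cadherin, was 4482 on it and at most 60.3 elsewhere. The 10 basal markers summed to 21718 on this array and to 35270 to 42317 on the others. Krt5, a basal keratin, was 3141 on it and at least 9576 elsewhere, and Krt14, its partner, was 7779 and at least 10092. Trp63, Cdh3, Itga6 and Itgb4 were also lowest on this array, and the other basal markers were not. Krt17 was 1454 on it, against 825 to 1171 on the shSca-1 arrays. Acta2 was 4776 on it and 4630 on shSca-1 replicate 3. Mylk and Oxtr were at most 48.6 on every array. Krt8 was 1303 on it and at most 33.1 elsewhere, and Epcam 281 and at most 148. The 10 fibroblast markers summed to 10439 on it and to 11434 to 13245 elsewhere, with Vim between 10025 and 12812 on all arrays, and 9 blood and endothelial markers summed to 1207 on it and to 599 to 840 elsewhere. Cd14, a monocyte marker, carried that sum with 809.9 on this array and at most 188 elsewhere, and without Cd14 the sum was 397 on it and 441 to 696 elsewhere. Ptprc, the pan-leukocyte marker CD45, lay between 3.98 and 20.5 on all arrays. Results are therefore given with and without shLuc replicate 3. In RNA from whole cultures, fewer cells of a type and less RNA per cell cannot be told apart.

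None of the 21 member probe sets passed an adjusted p under 0.05 in limma, with the smallest adjusted p of a member at 0.35. Over all 45037 probe sets the share past that threshold was 0%, and the methods' t-test gave 4 after the same adjustment, while 9.26% had an unadjusted p under 0.05, as had 1 member probe set. A second rule was that of the study, which asked for an unadjusted p below 0.01 together with a fold of more than 1.5. Ereg passed these thresholds as higher in shSca-1 cells and no member passed as lower, against a background of 0.5% higher and 1.33% lower over all probe sets. Without shLuc replicate 3, 0 member probe sets passed an adjusted p under 0.05, where 0.842% of all probe sets passed as higher and 1.92% as lower. In that comparison 1 member probe set, that of Ereg, passed the study's thresholds, as did 1605 of all 45037. By the methods' t-test, 0 member probe sets passed the study's thresholds, where 570 of all 45037 did, and 0 passed an adjusted p under 0.05. The groups did not overlap for 2 member probe sets with every shSca-1 array higher and for 1 with every shSca-1 array lower. The background of such probe sets was 6.7% higher and 9.81% lower. The median log2 fold change of the 9 genes was 0.14 on 6 arrays and -0.04 without shLuc replicate 3. Over all probe sets it was -0.03 and -0.04. With 21 probe sets, 1 past the thresholds is too few to set a share of members against the background.

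**Figure D1:**
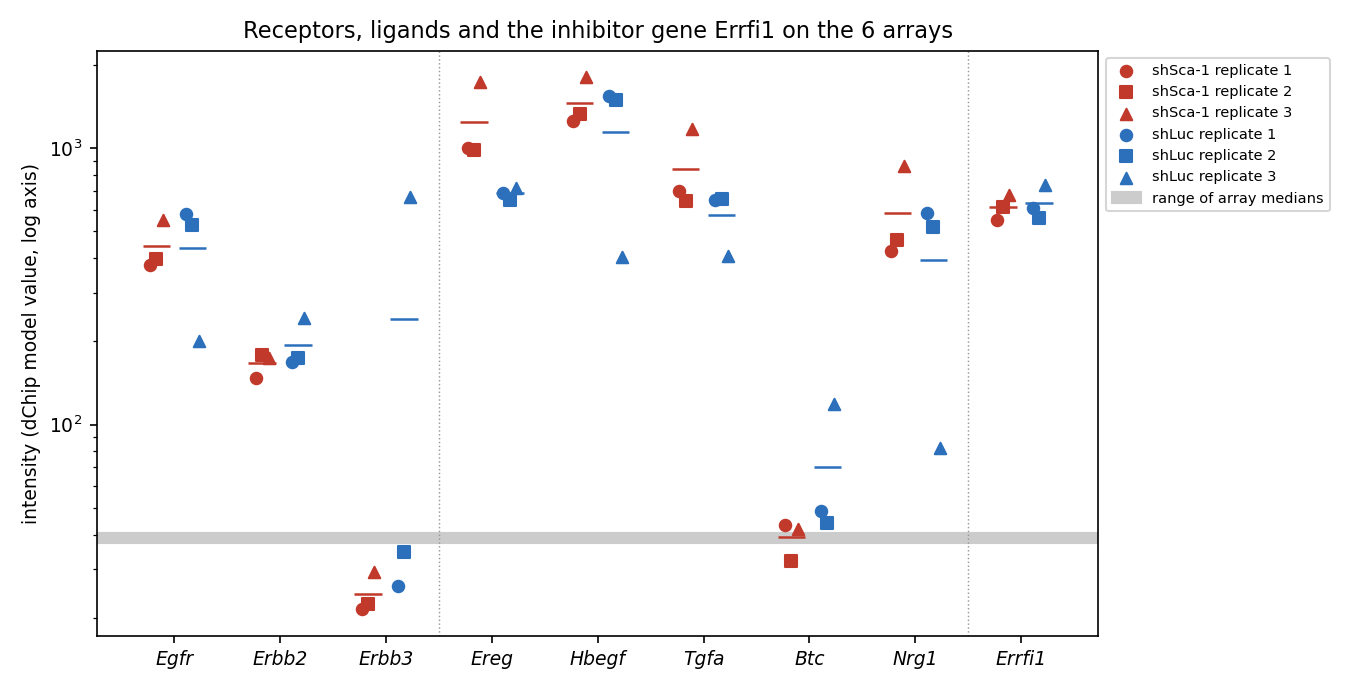
Intensity (log axis) of the brightest probe set of each of the 9 measured members on the 6 arrays. Points are arrays, with shSca-1 in red and shLuc in blue, short lines are means of 3 arrays, and the grey band is the range of array medians. Ereg lay between 981 and 1737 on the shSca-1 arrays and between 652 and 720 on the shLuc arrays, and Erbb3 was 665 on shLuc replicate 3 and at most 34.6 elsewhere.

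The 250 bases before the annotated start are shown for Egfr, Tgfa and Btc, members whose brightest probe sets set shLuc replicate 3 apart in opposite directions, low for Egfr and Tgfa and high for Btc. They are from RefSeq on GRCm38.p6, printed 5′ to 3′ on the gene's strand, with GC boxes (GGGCGG on either strand) in capitals:
Egfr, chr11:16751953-16752202, plus strand: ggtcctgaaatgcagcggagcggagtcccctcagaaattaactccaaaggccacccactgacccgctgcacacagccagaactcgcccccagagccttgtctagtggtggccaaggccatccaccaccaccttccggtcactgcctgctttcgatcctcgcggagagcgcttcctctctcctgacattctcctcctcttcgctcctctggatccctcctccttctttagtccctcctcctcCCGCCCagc
Tgfa, chr6:86194972-86195221, plus strand: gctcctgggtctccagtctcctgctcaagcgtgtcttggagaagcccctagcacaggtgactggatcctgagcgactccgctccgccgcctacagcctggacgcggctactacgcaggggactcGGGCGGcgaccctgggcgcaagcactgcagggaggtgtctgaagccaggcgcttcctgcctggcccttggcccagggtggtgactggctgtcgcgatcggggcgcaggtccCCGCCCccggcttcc
Btc, chr5:91402995-91403244, minus strand: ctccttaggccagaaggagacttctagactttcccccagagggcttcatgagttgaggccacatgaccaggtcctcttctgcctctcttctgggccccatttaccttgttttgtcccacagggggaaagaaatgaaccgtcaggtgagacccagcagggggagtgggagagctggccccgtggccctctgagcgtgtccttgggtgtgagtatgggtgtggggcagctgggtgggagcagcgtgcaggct

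The Egfr sequence held 1 GC box and the Tgfa sequence 2, while the Btc sequence held 0. Errfi1, whose brightest probe set was highest on shLuc replicate 3 like that of Btc, has 2 windows in the same table, with 3 GC boxes in one and 0 in the other. Erbb2, also highest on that array, had 0 GC boxes in its window, at a GC content of 66.0%. A relation of these motifs to the values was not tested. A GC box, the motif of Sp1-type factors, was present in 32.7% of 32851 promoter windows of the same length. None of the 3 sequences held a TATA box (TATAAA on either strand), found in 12.4% of windows, or an AP-1 site (TGACTCA on either strand), found in 4.5%. Their GC content was 60.8% for Egfr, 69.2% for Tgfa and 59.6% for Btc, with a median of 52.4% over all windows. Matches are letters only, and none of the arrays measured binding.

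Egfr encodes the receptor that binds EGF itself, which was present in the medium. Its brightest probe set, 1435888_at, had intensities of 379, 396 and 548 on shSca-1 replicates 1, 2 and 3. On shLuc replicates 1, 2 and 3 it had 579, 529 and 200. The groups overlapped, with the lowest and the highest value both in shLuc cells. On the log2 scale the fold change was 0.14 (SE 0.40, adjusted p = 0.94 from limma), with a 95% interval of -0.81 to 1.09. Without shLuc replicate 3 it was -0.35 (adjusted p = 0.34 from limma), of the opposite sign. The probe sets of Egfr did not agree on the low value of that array. Against the mean of shLuc replicates 1 and 2, shLuc replicate 3 was 2.76 times lower for 1435888_at, 3.38 times lower for 1424932_at and 2.53 times lower for 1451530_at. For 1460420_a_at, whose name marks it as shared by several transcripts of the gene, the ratio was 1.25, with values of 223, 206 and 220 in shSca-1 cells and 244, 230 and 190 in shLuc cells. Of the other 3 probe sets, 1454313_at and 1432647_at lay between 47.5 and 92.3 on every array. The third, 1457563_at, lay between 6.29 and 14.4 on the shSca-1 arrays and between 3.92 and 5.79 on the shLuc arrays. That was a separation of the groups below the array medians, with a log2 fold change of 0.86 (adjusted p = 0.65 from limma). With a floor of 16 or 64 on intensities, this probe set has no difference left to test.

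Erbb2 encodes the receptor without a ligand of its own, known as HER2 in human. It had intensities of 148, 179 and 175 on the shSca-1 arrays and 168, 174 and 242 on the shLuc arrays. All but shLuc replicate 3, the highest, fell into one narrow range. Its log2 fold change was -0.20 (SE 0.18, adjusted p = 0.78 from limma) on 6 arrays and -0.04 without shLuc replicate 3 (adjusted p = 0.93 from limma).

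Erbb3 encodes a neuregulin receptor with little kinase activity, and was near background on all arrays but one. Its brighter probe set had 21.5, 22.4 and 29.4 on the shSca-1 arrays and 26.1, 34.6 and 665 on the shLuc arrays. The value of shLuc replicate 3 was 21.9 times the mean of the other shLuc arrays. The log2 fold change of -1.80 (SE 1.15, adjusted p = 0.69 from limma) rested on it, and without this array it was -0.31 (adjusted p = 0.72 from limma). The second probe set, between 6.16 and 37.3 on all arrays, did not show the high value and had 9.32 on shLuc replicate 3. The array with high Erbb3 is the one with high luminal markers, and the part of luminal cells in this value was not tested.

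Ereg encodes epiregulin, a ligand of the EGF receptor that also activates ErbB4. Its single probe set had intensities of 1002, 981 and 1737 on shSca-1 replicates 1, 2 and 3, against 686, 652 and 720 on shLuc replicates 1, 2 and 3. Every shSca-1 array was above every shLuc array, and shLuc replicate 3 lay close to the other shLuc arrays. The means were 1240 ± 431 (SD, n = 3) in shSca-1 cells and 686 ± 34.1 (SD, n = 3) in shLuc cells. The fold change was 1.74, and the log2 fold change was 0.80 (SE 0.22, 95% interval 0.28 to 1.33). Its adjusted p from limma was 0.35, and across the alternatives it ranged between 0.11 and 0.73. An exact permutation test of 3 arrays against 3 gave a two-sided p of 0.1, the smallest that this design allows. Groups that do not overlap always give this value, so the test adds nothing to their separation, and Btc gave the same. Leaving out shLuc replicate 3 gave a log2 fold change of 0.84 (adjusted p = 0.11 from limma), and leaving out shSca-1 replicate 3, the highest array, gave 0.53 (adjusted p = 0.38 from limma). Ereg stood past the study's thresholds on 6 arrays. It did not without shSca-1 replicate 1, shSca-1 replicate 3, shLuc replicate 1 or shLuc replicate 2, nor on 6 arrays with a floor of 16 or 64 on intensities, without dim probe sets, with no trend in the variance or by the methods' t-test. The call thus depended on the set of arrays and on the processing. Without shSca-1 replicate 3 the unadjusted p from limma stayed under 0.01, and the fold change missed 1.5.

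Hbegf encodes HB-EGF, a heparin-binding ligand of the EGF receptor. Its brighter probe set had 1251, 1329 and 1805 on the shSca-1 arrays and 1542, 1490 and 404 on the shLuc arrays. The shLuc values of replicates 1 and 2 lay within the range of the shSca-1 arrays, and only shLuc replicate 3 was below it. Its log2 fold change was 0.56 (SE 0.50, adjusted p = 0.77 from limma) on 6 arrays and -0.07 without shLuc replicate 3 (adjusted p = 0.87 from limma). The second probe set, with 267 on shLuc replicate 3 and between 682 and 1084 on the other arrays, showed the same low array.

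Tgfa encodes TGF-α, a ligand of the EGF receptor in many epithelia. Its brightest probe set, 1421943_at, had 703, 646 and 1176 on the shSca-1 arrays and 648, 657 and 409 on the shLuc arrays. The highest value was on shSca-1 replicate 3 and the lowest on shLuc replicate 3, with the other 4 arrays close together. This gave a log2 fold change of 0.54 (SE 0.28, adjusted p = 0.62 from limma), and without shLuc replicate 3 it was 0.31 (adjusted p = 0.58 from limma). Neither of its other probe sets was lowest on shLuc replicate 3. One of them, 1450421_at, had 231, 170 and 191 in shSca-1 cells and 192.5, 224 and 200 in shLuc cells, a log2 fold change of -0.07. The other, 1421942_s_at, lay between 46.0 and 77.3 on all arrays with its highest value on shSca-1 replicate 3, and the letter in its name marks probes that can match transcripts of more than 1 gene.

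Btc encodes betacellulin, which binds the EGF receptor and ErbB4. Its brighter probe set had 43.3, 32.0 and 41.8 on the shSca-1 arrays and 48.8, 44.0 and 119 on the shLuc arrays. Every shSca-1 array was below every shLuc array, though 5 of the 6 values were near the array medians. This gave a log2 fold change of -0.71 (SE 0.40, adjusted p = 0.65 from limma), and -0.26 without shLuc replicate 3 (adjusted p = 0.70 from limma). The second probe set, at 96.0 on shLuc replicate 3 and between 28.3 and 35.8 elsewhere, had the same high array and groups that overlapped.

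Nrg1 encodes neuregulin-1, a ligand of ErbB3 and ErbB4. Its single probe set had 423, 465 and 859 on the shSca-1 arrays and 583, 517 and 82.4 on the shLuc arrays. The value of shLuc replicate 3 was 6.68 times below the mean of the other shLuc arrays, while shSca-1 replicate 3 was 1.93 times the mean of the other shSca-1 arrays. The log2 fold change was 0.92 (SE 0.74, adjusted p = 0.75 from limma) on 6 arrays and 0.01 without shLuc replicate 3 (adjusted p = 0.99 from limma). The gene has many annotated transcripts, and 1 probe set does not show which of them was measured.

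Errfi1 encodes MIG6, an inhibitor that binds the kinase domain of ErbB receptors and is induced by their signal. Its brighter probe set had 550, 611 and 678 on the shSca-1 arrays and 608, 557 and 738 on the shLuc arrays. The groups overlapped over most of their ranges, and the log2 fold change was -0.04 (SE 0.14, 95% interval -0.38 to 0.29, adjusted p = 0.95 from limma). The sign turned to 0.02 after centring the arrays or normalizing them by quantiles, and to 0.07 without shLuc replicate 3. The second probe set had a log2 fold change of -0.07 (adjusted p = 0.93 from limma).

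**Figure D2:**
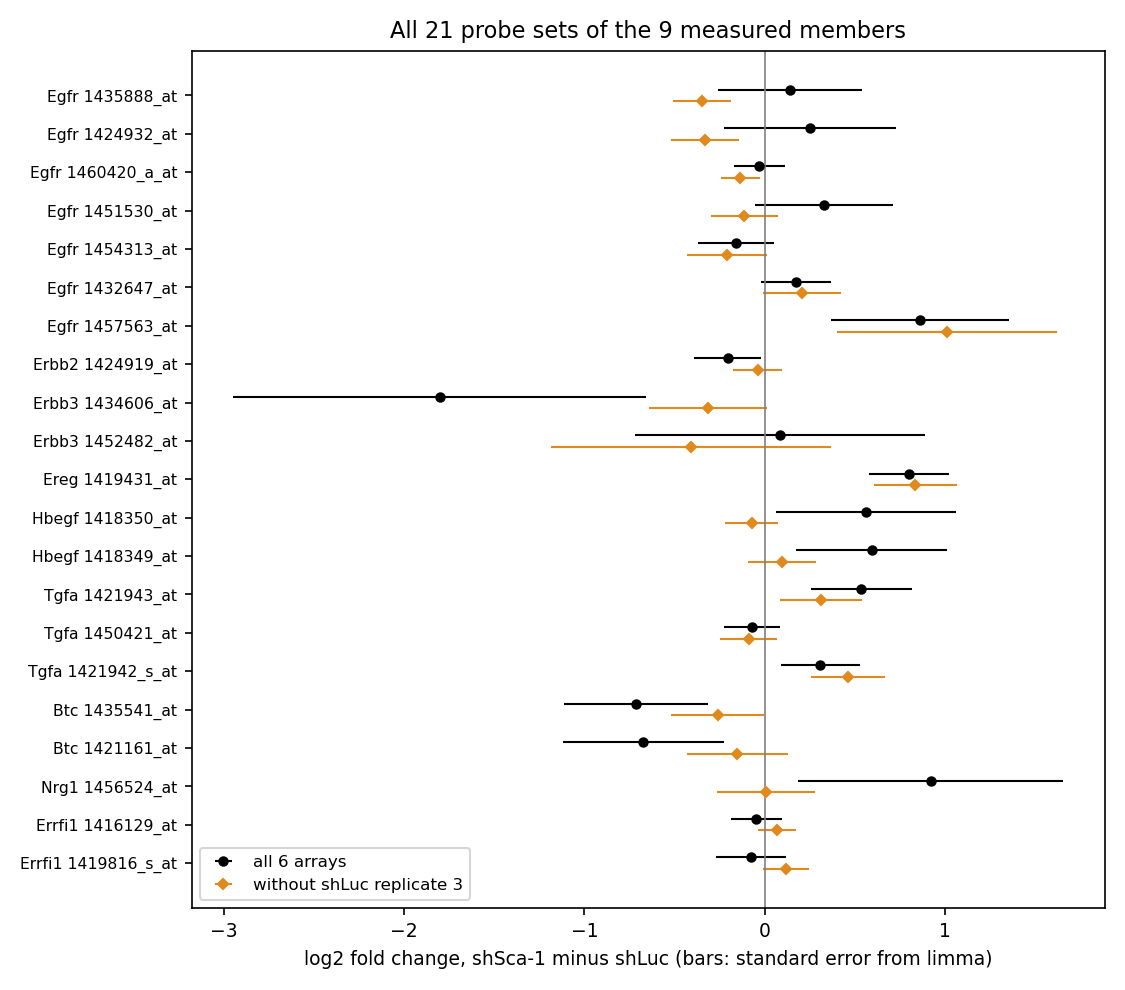
Log2 fold change (horizontal axis, shSca-1 minus shLuc) of the 21 probe sets of the 9 measured members. Black circles are from all 6 arrays, orange diamonds are without shLuc replicate 3, and bars are standard errors from limma. Nrg1 lies at 0.92 on 6 arrays and 0.01 without that array, and Ereg at 0.80 and 0.84.

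Extremes of several members fell on the third array of a group. Among the 14 member probe sets with a mean intensity of at least 100, 8 were lowest on shLuc replicate 3, against 32.2% of all 16010 probe sets at that level. Several of the 8 were of Egfr and both of Hbegf were among them, and by brightest probe sets it was 4 of 8 genes. The Egfr ones included 1460420_a_at, only 1.25 times lower on that array. Erbb3 reached the minimum mean only through shLuc replicate 3. Probe sets that do so, also in the background, cannot be lowest on it. For 4 of the 14 the value of shLuc replicate 3 was less than 1 in 2 of that on every other array, where the background was 4.72%. These belonged to Hbegf, with both of its probe sets, Nrg1 and Egfr. The part that the high luminal markers and the low sum of basal markers of that array have in these values was not tested. The highest value was on shSca-1 replicate 3 for 5 of the 14, against a background of 17%, and for 4 of the 8 genes. Those 5 belonged to Ereg, Hbegf, Tgfa and Nrg1. On that array, Ereg was 1.75, Tgfa 1.74, Nrg1 1.93 and the brighter probe set of Hbegf 1.40 times the mean of shSca-1 replicates 1 and 2. The summed luminal markers did not set shSca-1 replicate 3 apart, with 674 against 659 and 656 on the other shSca-1 arrays. The summed basal markers were 40948 on it and 35658 and 35270 on the others, with 42051 and 42317 on shLuc replicates 1 and 2. Single markers did set it apart from the other shSca-1 arrays, in both directions. Trp63, a basal transcription factor gene, was 2898 on it and 1531 and 1464 on the others, a ratio of 1.93 to their mean. Among the basal markers this ratio ranged from 0.75 for Acta2 to that of Trp63, with 1.59 for Itgb4, an integrin gene, and 1.12 for Krt5 and Krt14. Trp63 was 2950 and 2870 on shLuc replicates 1 and 2. Itgb4 was 2942 on shSca-1 replicate 3 and 2697 and 3094 on shLuc replicates 1 and 2. For both genes shSca-1 replicate 3 was thus near these 2 shLuc arrays. Cd68, a macrophage marker, was 212 on it and 53.9 and 77.6 on the others, Pdgfra was 292 on it and 96.2 and 108 on the others, and Pdgfrb was 3.26 on it and 157 and 170 on the others. The blood and endothelial markers, Cd68 among them, summed to 775 on it and to 599 and 649 on the others, with 840 and 808 on shLuc replicates 1 and 2. The difference of this sum between shSca-1 replicate 3 and the other shSca-1 arrays lay mainly in Cd68. The part of these markers in the high values of Ereg, Tgfa, Nrg1 and Hbegf was not tested.

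**Figure D3:**
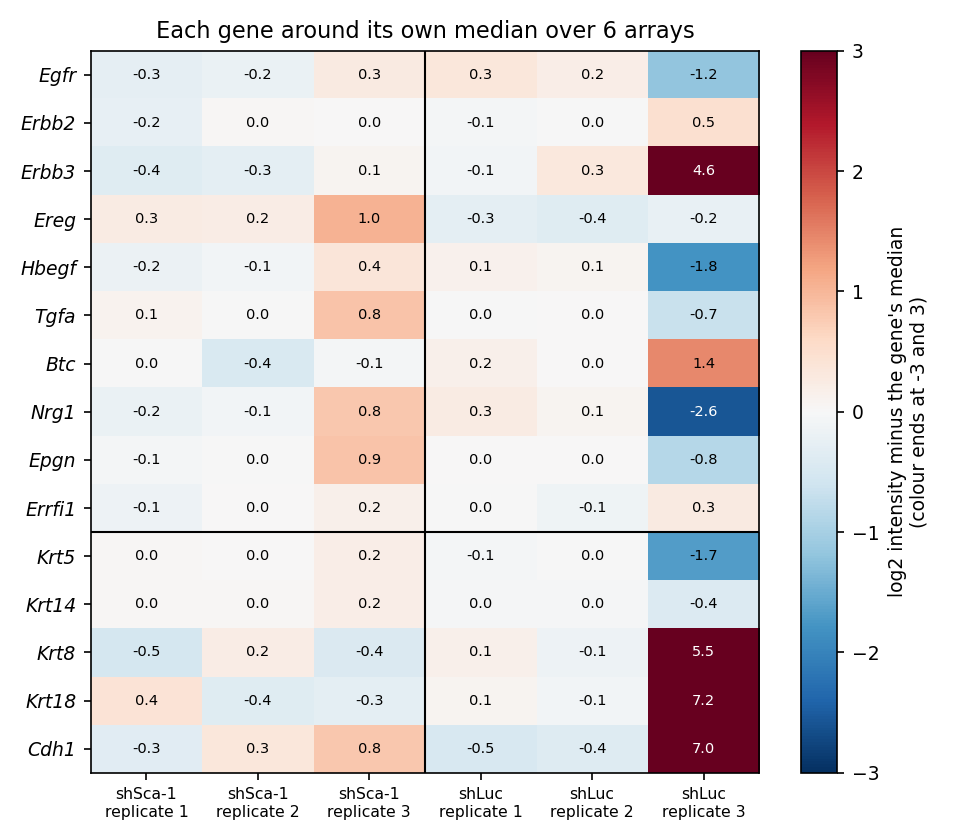
Log2 intensity of each gene minus its median over the 6 arrays (columns), for the 9 measured members and Epgn above the line and 5 keratin and cadherin genes below it. Colours end at -3 and 3, and the number in each cell is the difference. On shLuc replicate 3, Nrg1 lies 2.6 below its median and Erbb3 4.6 above, with Krt18 7.2 above and Krt5 1.7 below.

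The genes most like each member across the 6 arrays were sought among 9008 other genes with a mean intensity of at least 100. Likeness was the root mean square difference of log2 values centred on each gene's mean. It was computed for members that varied by at least 1 on the log2 scale and had a mean intensity of at least 100 themselves. The range left out Erbb2 (0.71) and Errfi1 (0.42), and the mean intensity left out Btc. Nearest to Egfr were Eva1a (0.04) and Ripk4 (0.04). Nearest to Hbegf were Sfn, which encodes stratifin (0.05), and Nxph4 (0.06), and nearest to Nrg1 were Aqp3, a water and glycerol channel gene (0.06), and Flrt3 (0.07). Nearest to Tgfa were Zdhhc2 (0.08) and Epgn (0.09), the gene of epigen, another EGF-like ligand. Epgn had 1504, 1574 and 2847 on the shSca-1 arrays and 1596, 1578 and 875 on the shLuc arrays, with its extremes on the same arrays as Tgfa. Nearest to Ereg were Tnfaip3, an NF-κB target gene (0.09), and Cdc25b, a cell cycle phosphatase gene (0.13). Nearest to Erbb3 were Nrep (0.21) and Oas1a (0.29), both high on shLuc replicate 3. Erbb3, Nrep and Oas1a reached the minimum mean only through that array, so that this likeness was fixed by the filter. These are descriptions over 6 arrays and are taken from many candidates. Epgn, Ereg, Areg and Btc are neighbours in that order on chromosome 5. Ereg and Epgn were both highest on shSca-1 replicate 3, Btc was highest on shLuc replicate 3, and Epgn had a log2 fold change of 0.54 (adjusted p = 0.66 from limma).

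The other genes of the pathway were taken from 6 lists of 87 genes, of which 81 had a probe set of their own. Of the 81, 1 was lower and 0 were higher past the study's thresholds, and 0 passed an adjusted p under 0.05 in limma, where 11 had an unadjusted p under 0.05. Without shLuc replicate 3, 1 passed an adjusted p of 0.05 as higher and 3 as lower. Over the 18193 named genes the corresponding counts were 96 higher and 276 lower past the study's thresholds, and 212 higher and 496 lower without that array, and 1932 had an unadjusted p under 0.05 on 6 arrays. Of the named genes, 8245 had a positive and 9934 a negative log2 fold change, and of the 81, 33 and 48. The median log2 fold change of the 81 was -0.09 on 6 arrays, against -0.04 over the named genes. Without shLuc replicate 3, 30 of the 81 were positive and 51 negative, with a median of -0.07. Over the named genes 8243 were then positive and 9936 negative, with a median of -0.04.

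Spry2 was the one lower past the study's thresholds. It encodes a Sprouty protein, an inhibitor of the RAS and ERK cascade that growth factors induce. Its intensities were 523, 441 and 507 on the shSca-1 arrays and 830, 739 and 785 on the shLuc arrays, with no overlap and with shLuc replicate 3 between the others of its group. The log2 fold change was -0.68 (SE 0.11, adjusted p = 0.15 from limma), and it was -0.68 without shLuc replicate 3 (adjusted p = 0.0209 from limma). Spry2 is among the genes that the study chose on these samples, so its direction is not independent evidence. Of the 19 transcripts that ERK signaling induces and their feedback inhibitors, 9 had a positive and 10 a negative log2 fold change, with a median of -0.04. Without shLuc replicate 3, 7 were positive and 12 negative, with a median of -0.15. Ccnd1, which encodes cyclin D1, was higher without shLuc replicate 3 (log2 fold change 0.35, adjusted p = 0.0275 from limma). Its intensities were 5784, 5586 and 5900 in shSca-1 cells and 4509, 4548 and 6018 in shLuc cells, and on 6 arrays it had 0.21 (adjusted p = 0.67 from limma).

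Of 10 sheddases and their regulators, Adam9, which encodes a metalloprotease, was lower without shLuc replicate 3 (log2 fold change -0.90, adjusted p = 0.0123 from limma). It had 675, 751 and 885 on the shSca-1 arrays and 1492, 1368 and 882 on the shLuc arrays, so that shLuc replicate 3 lay among the shSca-1 values, and the value on 6 arrays was -0.67 (adjusted p = 0.42 from limma). Adam17, which encodes the main protease of TGF-α, amphiregulin and HB-EGF release, had a log2 fold change of 0.03 (adjusted p = 0.97 from limma). Of 18 adaptors and docking proteins, 3 had a positive and 15 a negative log2 fold change, with a median of -0.23 on 6 arrays and -0.10 without shLuc replicate 3. Pik3r2, which encodes a regulatory subunit of PI 3-kinase, had 300.1, 342 and 290.3 in shSca-1 cells and 441, 448 and 436 in shLuc cells. Its groups did not overlap, and the log2 fold change was -0.51 on 6 arrays (adjusted p = 0.26 from limma) and -0.52 without shLuc replicate 3 (adjusted p = 0.0477 from limma). The fold was under 1.5 in both.

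Of 21 genes of receptor turnover and negative regulation, 8 had a positive and 13 a negative log2 fold change, with a median of -0.06. Without shLuc replicate 3, 7 were positive and 14 negative, with a median of -0.09. On 6 arrays Lrig3, of a family of membrane proteins that act on receptor kinases, had -0.50 (adjusted p = 0.34 from limma). Socs4, of the suppressor of cytokine signaling family, had -0.41 (adjusted p = 0.36 from limma). Without shLuc replicate 3, Lrig3 had -0.53 (adjusted p = 0.095 from limma) and Socs4 -0.44 (adjusted p = 0.081 from limma). Of 7 measured genes of the ERK cascade, Nras had -0.34 on 6 arrays (adjusted p = 0.54 from limma). Rps6ka3, a kinase gene downstream of ERK, had -0.28 (adjusted p = 0.65 from limma). Without shLuc replicate 3, Nras had -0.45 (adjusted p = 0.073 from limma) and Rps6ka3 -0.14 (adjusted p = 0.61 from limma). The remaining receptor and ligand genes, Erbb4, Egf, Epgn, Nrg2, Nrg3 and Nrg4, all had positive log2 fold changes on 6 arrays, with a median of 0.46. Of the 18193 named genes, 8245 were positive. From limma, 0 of the 6 had an unadjusted p under 0.05. Nrg2 had 0.04 on 6 arrays and -0.02 without shLuc replicate 3, where 5 of the 6 were positive and 1 negative. Of these 6, 3 were below the array medians on every array, with Erbb4 between 4.15 and 11.5, Nrg3 between 5.31 and 23.0 and Nrg4 between 10.9 and 33.3. Both receptors for neuregulins, Erbb3 and Erbb4, were thus near or below the array medians on the shSca-1 arrays and on shLuc replicates 1 and 2.

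**Figure D4:**
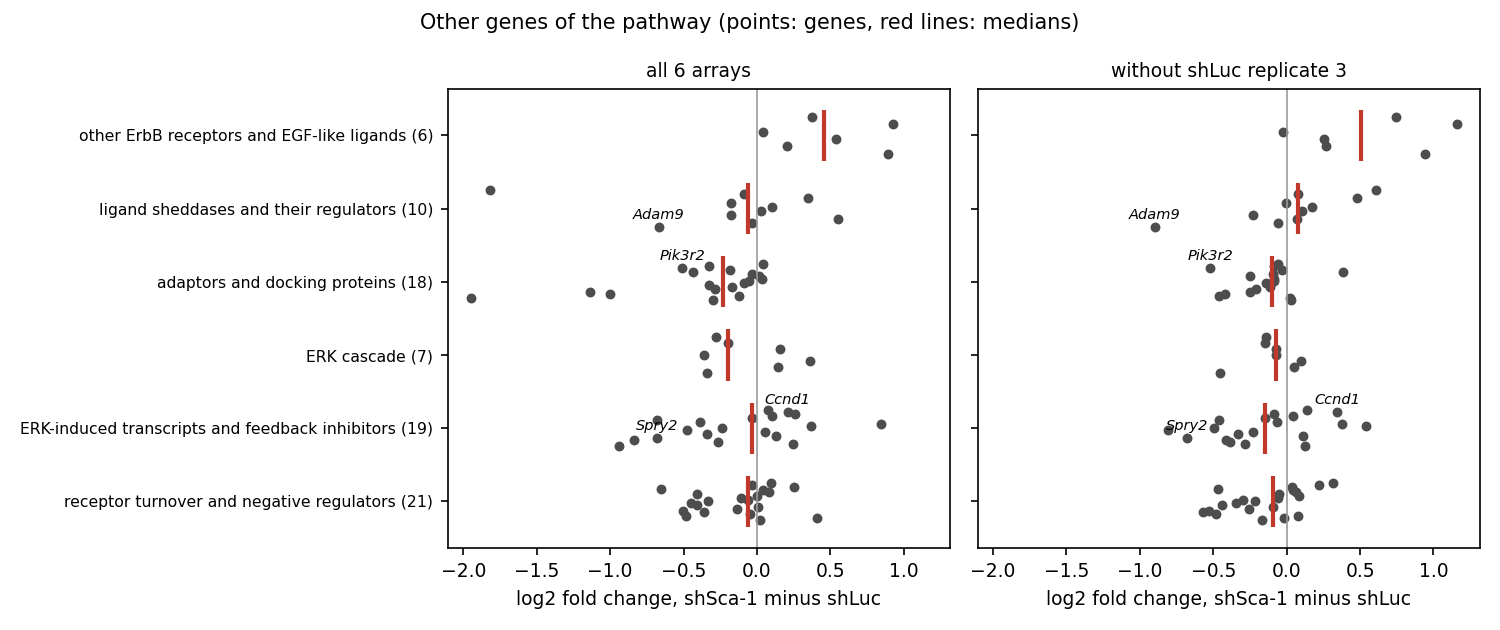
Pathway genes of 6 lists by log2 fold change (horizontal axis, shSca-1 over shLuc), from all 6 arrays at left and without shLuc replicate 3 at right. Each point is 1 gene, a red line marks the median of a list, and parentheses hold how many genes were measured. Spry2 lies at -0.68 in both panels, and Grb7, an adaptor gene, at -1.95 at left and 0.02 at right.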

How the data were processed

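Total RNA of Wnt1-YL cells was labelled and hybridized to Affymetrix mouse 430 2.0 arrays. The authors computed the deposited intensities with dChip, which subtracts mismatch from perfect match probes (PM-MM) and normalizes on an invariant set. Its version is not given in the sources used here. Of 45101 probe sets, 64 controls were left out. The log2 scale was used, after raising values below 1 to 1. All 45037 probe sets were tested with limma 3.58.1 (R 4.3.3; lmFit, then eBayes with trend), with Benjamini-Hochberg adjustment over all of them, on 3 arrays per group. Genes were named from the platform annotation, where 34945 probe sets had 1 symbol, 932 several and 9160 none. The brightest probe set stands for its gene. All members were named, with Ly6a, and of each pathway list the genes past a threshold or the 2 with the smallest p. Adam17, Grb7, Cd14, Cd68, Trp63, Itgb4, Acta2, Pdgfra, Pdgfrb and Nrg4 were chosen after their values were seen, as was the marker sum without Cd14. So were Krt17, Cdh3, Itga6, Mylk and Oxtr. Members and lists were chosen with earlier results of these data known. Replicate numbers were not treated as pairs. The fit was tested on simulated data. The number of arrays limits the precision.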

Additional observations from a re-analysis of the deposited data

How the results depend on the processing

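The alternatives were other normalizations, floors, filters, variance models, tests and folds, a replicate block, gene means over probe sets, and fits with 1 array left out. For the 9 members, 146 of 153 alternative values kept the direction and the side of an adjusted p of 0.05. The other 7 turned sign, none of them past it. The filter, variance models, t-test and replicate block left the log2 fold change itself unchanged, so its direction could not turn there. The arithmetic fold kept the adjusted p of the main fit. A kept direction also does not mean a kept size. Without shLuc replicate 3, Nrg1 went from 0.92 to 0.01 and Erbb3 from -1.80 to -0.31, both counted as kept. Errfi1 turned to 0.017 after quantile normalization and 0.019 after centring, and ranged between -0.13 and 0.069 with 1 array left out. Egfr ranged between -0.35 and 0.42 and Hbegf between -0.071 and 0.89. The 1 member past the study's thresholds, Ereg, became 0 with a floor of 16 or 64 on intensities, without dim probe sets, with no trend, by the methods' t-test, and in 4 of 6 fits with 1 array left out, which gave 0 to 1. The cause was not tested. The pathway count of 1 was 3 with a replicate block and 1 to 2 with 1 array left out, 2 without shSca-1 replicate 3 or shLuc replicate 3. The 824 probe sets past the study's thresholds were 329 with the floor of 64 and 507 to 1605 with 1 array left out, where the absence of shSca-1 replicate 1 gave 507, that of shSca-1 replicate 2 gave 534 and that of shLuc replicate 3 gave 1605. Ly6a passed an adjusted p of 0.05 after centring (-4.11), without dim probe sets or with robust variance (both -4.17), and without shLuc replicate 3, and ranged between -4.64 and -3.92 with 1 array left out. Arrays with the same replicate number had deviations that correlated at -0.04, -0.02 and -0.03 across probe sets. With 3 arrays per group, these values cannot decide whether such arrays share more than a number, and the labels do not say. Members near the array medians, Erbb3 and Btc, have values that background limits.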
